A study of Homo sapiens with 9 samples.

Results

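HL-60-RhoH cells grown with 4-hydroxytamoxifen (4-OHT) were compared with the same cells grown without it. The comparison uses 6 of the 9 arrays of the series, chosen by their titles: 3 labelled HL-60-RhoH + 4-OHT (called induced here) and 3 labelled HL-60-RhoH no 4-OHT (called uninduced). HL-60 is an established human promyelocytic leukaemia cell line, and clone 15 is a subline used as a model of eosinophil precursors. All 9 samples were clone 15 cells transduced with a lentiviral construct that 4-OHT switches on. In 6 samples the construct carried RhoH, and in the other 3, which received 4-OHT, it carried green fluorescent protein (GFP). The 4-OHT dose was 100 nM in the treated samples. The time in 4-OHT, and whether each transduced line was a clone or a pool, are not given in the sources used here. GFP cells without 4-OHT are not among the samples used here, so the construct, 4-OHT itself and the trigger system cannot be told apart as the source of a difference between induced and uninduced cells. The GFP arrays enter the estimate of the spread and are given as levels beside the results. The samples within a group were biological replicates according to the series' design text, and p-values here measure only the spread between them.

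RhoH, also called TTF, is a small GTPase of haematopoietic cells. It is known for the recruitment of the kinase ZAP70 to the T cell receptor and the adaptor LAT, and so for its part in antigen receptor signalling. 4-OHT is an active metabolite of tamoxifen that binds the oestrogen receptor, and it is widely used to activate fusion proteins that carry the receptor's ligand-binding domain.

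The arrays carried the genes of a promyelocytic line. Of 9 promyelocyte markers 6 were measured, and they lay between percentile 88.2 and 100 of all genes in the uninduced mean, with MPO (myeloperoxidase) at a log2 signal of 13.39. Of 6 eosinophil markers 3 were measured, and EPX (eosinophil peroxidase) was at percentile 94.6 while SIGLEC8 was at 17.3. The T cell marker CD2 lay at percentile 33.2 and the fibroblast marker DCN at 2.45. The epithelial marker EPCAM was at percentile 16.1 and KRT18, a keratin, at 85.6. No marker of B or erythroid cells was measured. Of the markers, only CTSG (cathepsin G) was called as changed with 4-OHT, while EPX just missed the threshold (-0.75, limma adjusted p = 0.0560). The summed log2 level of the 6 promyelocyte markers was 69.4 to 69.5 in the uninduced arrays and 67.3 to 68.5 in the induced ones. The replicate 1 arrays of both RhoH groups stood apart from the others. In both groups 37 genes were over 1 log2 unit higher on replicate 1 than on the other arrays of the group, 3 genes were that much lower, and none of either kind was called. The standard deviation of an array's departures from its group mean was 0.206 for uninduced replicate 1, 0.200 for induced replicate 1 and 0.204 for induced replicate 3. It was 0.130 to 0.162 for the other RhoH arrays and smaller, 0.0904 to 0.0959, for the GFP arrays. Leaving out both replicate 1 arrays ended the calls of 31 of the 161 called genes named under the rule used here. Only some of these changes are given below.

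More genes rose than fell. Of 14778 genes, 558 (3.78%) were called at a limma adjusted p under 0.05, 447 higher (3.02%) and 111 lower (0.751%) with 4-OHT. Higher genes were thus 80.1% of the calls. They were 61.7% after the arrays were quantile-normalised again (588 higher and 365 lower) and 58% without induced replicate 3 (386 and 280). The lower count moved when single arrays were left out. It was 17 without uninduced replicate 3, 31 without uninduced replicate 2 and 61 without induced replicate 1. Without uninduced replicate 1 it was 129 and without induced replicate 2 119. It was 44 to 47 without any 1 GFP array, although these arrays enter only the estimate of the spread. In all of them more genes were higher than lower. The rises were also larger. Among the called genes the median size was 0.689 on the log2 scale for the higher ones, up to 4.33, and 0.578 for the lower ones, down to a fall of 1.05. At least 2-fold changes were seen for 99 higher and 3 lower genes. The median log2 fold change of all genes was -0.0043. For each of the 558 called genes the 3 induced arrays lay wholly above or below the 3 uninduced ones, as they did for 2149 genes (14.5%) of all tested. The genes nearest the limit were the signalling adaptor TRAF3 (-0.43, adjusted p = 0.0491) and LINC00467 (0.49, 0.0491) inside it, and SSH3 (0.36, 0.0502) and TAPBPL (0.73, 0.0503) outside.

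**Figure D1:**
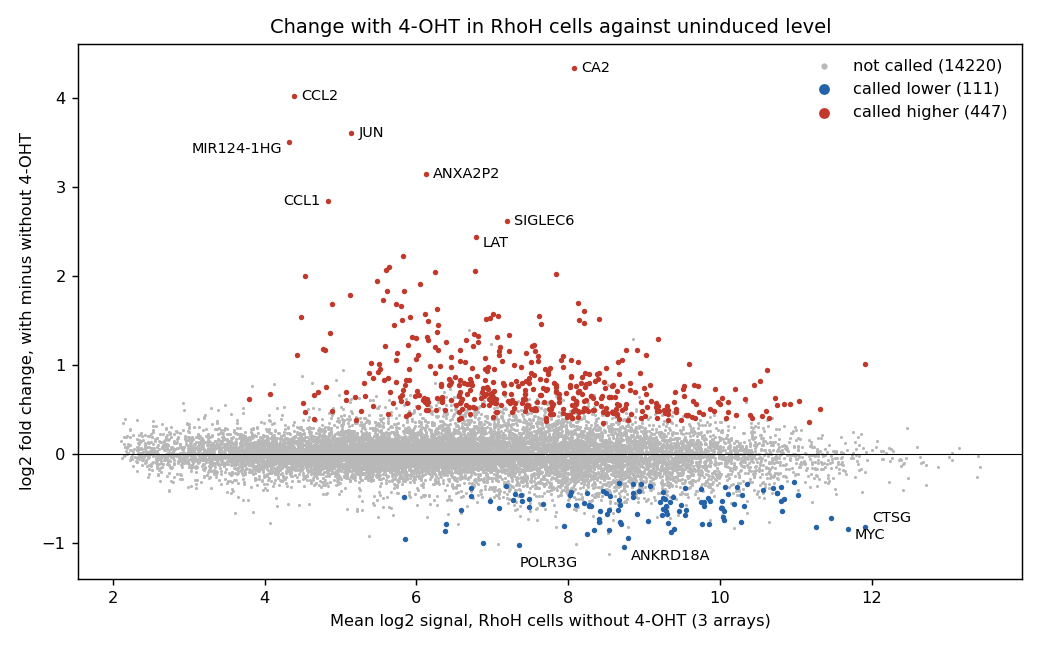
Log2 fold change with minus without 4-OHT (vertical axis) against the mean log2 signal of the 3 uninduced RhoH arrays (horizontal axis), 1 point per gene, with 447 genes called higher in red and 111 called lower in blue. CCL2 and JUN started from low signals and CA2 from a higher one (percentile 13.8, 24.7 and 75.6 of all genes), while the lower genes MYC and CTSG started from high ones. The mean on the horizontal axis is also the term subtracted on the vertical axis.

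The genes with the largest rises and those with the largest falls sat at different levels in the uninduced arrays. In the uninduced mean the 25 called genes with the highest fold changes lay between percentile 13.1 and 76.4 of all genes, with a median of 36.5. The 15 called genes with the lowest fold changes lay between 39.1 and 99.7, with a median of 81.9. The uninduced mean is subtracted in the fold change that picked these genes, so this contrast is partly built in. In the induced mean the 25 lay between percentile 52 (LY96) and 99.9 (CA2). The 15 lay between 20.8 (GCSH) and 98.9 (CTSG) there. Brighter genes were called more often. When genes were split by mean signal into 4 equal groups, 0.162% of the dimmest, 1.16% and 5.71% of the middle groups and 8.06% of the brightest were called. Most calls of both directions were thus bright. The brighter middle group and the brightest held 177 and 229 of the 447 higher genes, and 34 and 69 of the 111 lower ones. The setting also mattered for single genes. Of the 161 genes named under the rule for called genes, 72 kept their calls in each of the 18 alternatives they entered (KIT, a dim gene among them, was not tested with the dimmest 25% left out). Fitting only the 6 RhoH arrays estimates the spread from fewer samples and without the GFP arrays, which varied less. This fit ended the calls of 88, and the part played by each was not tested. The remaining gene, CPA3, lost its call without both replicate 1 arrays. Leaving out 1 of the 9 arrays ended the calls of 72 genes. Those described below are given with the highest adjusted p so reached and the array left out.

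RHOH, the gene carried by the construct, was low on all arrays and rose little. Its log2 signal (probe set 16966214) was 5.23, 5.25 and 5.15 in the uninduced arrays and 5.60, 5.73 and 5.45 in the induced ones. It was 5.90, 5.94 and 5.94 in the GFP arrays, whose construct does not carry it by the labels. Every induced array was above every uninduced one and below every GFP one. With 4-OHT it rose 1.30-fold (a difference of 0.38 with SE 0.09 and a limma adjusted p of 0.0451), and the induced minus GFP difference was -0.33 (adjusted p = 0.0717). The call was lost in 12 of 18 alternatives, with adjusted p between 0.00542 and 0.192 over all of them, and with 8 of the 9 arrays left out singly, up to 0.171 without uninduced replicate 3. How much of the construct's transcript this probe set reads was not tested. Since the GFP-labelled arrays had the most RHOH, the directions below are those of the libraries as labelled.

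The largest rise was that of CA2, which encodes carbonic anhydrase II, an enzyme that interconverts carbon dioxide and bicarbonate. Its log2 signal was 8.05, 8.03 and 8.14 without 4-OHT and 12.34, 12.39 and 12.51 with it. The groups were far apart and the arrays of each were close together. This was a 20.2-fold rise (4.33, SE 0.08, with a limma adjusted p of 2.53e-09). On the GFP arrays the signal was 11.76, 11.80 and 11.76, so CA2 was also high in the other cells that received 4-OHT, and 0.64 higher in the induced RhoH arrays than there (adjusted p = 0.00172).

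CCL2, a chemokine that attracts monocytes, rose from log2 signals of 4.41, 4.32 and 4.42 to 9.71, 7.32 and 8.18. The induced arrays spread widely, with replicate 1 the highest and replicate 2 the lowest, yet none came near the uninduced ones. The rise was 16.2-fold (4.02, SE 0.45, adjusted p = 0.000984). It was 3.37 without induced replicate 1 and 4.56 without induced replicate 2. The GFP arrays were higher still, at 10.40, 10.14 and 10.24. CCL1, a chemokine for the receptor CCR8, rose 7.19-fold from 5.05, 5.11 and 4.35 to 7.76, 7.30 and 8.0 (2.85, adjusted p = 0.000108). Its GFP mean of 8.11 did not differ from the induced mean past the threshold (adjusted p = 0.396).

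JUN, a subunit of the transcription factor AP-1, stood at 5.12, 5.21 and 5.08 without 4-OHT. With 4-OHT it was at 8.53, 8.33 and 9.36, with replicate 3 the highest. The rise was 12.1-fold (3.60, SE 0.24, adjusted p = 3.99e-05), against GFP signals of 9.72, 9.29 and 9.21. MIR124-1HG, the host transcript of a brain-enriched microRNA, rose 11.4-fold from 4.45, 4.34 and 4.20 to 7.59, 7.96 and 7.96 (adjusted p = 4.96e-07). The induced arrays lay between the uninduced ones and the GFP ones, which were at 9.16, 9.25 and 9.06 (induced minus GFP -1.32, adjusted p = 0.000255). ANXA2P2, a processed pseudogene of annexin A2, rose 8.86-fold, from 6.58, 6.0 and 5.81 to 9.49, 8.51 and 9.82. Its parent gene ANXA2 rose 2.02-fold (1.01, adjusted p = 0.00476). Probes of a pseudogene can read transcripts of its parent, so the share of each is uncertain.

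**Figure D2:**
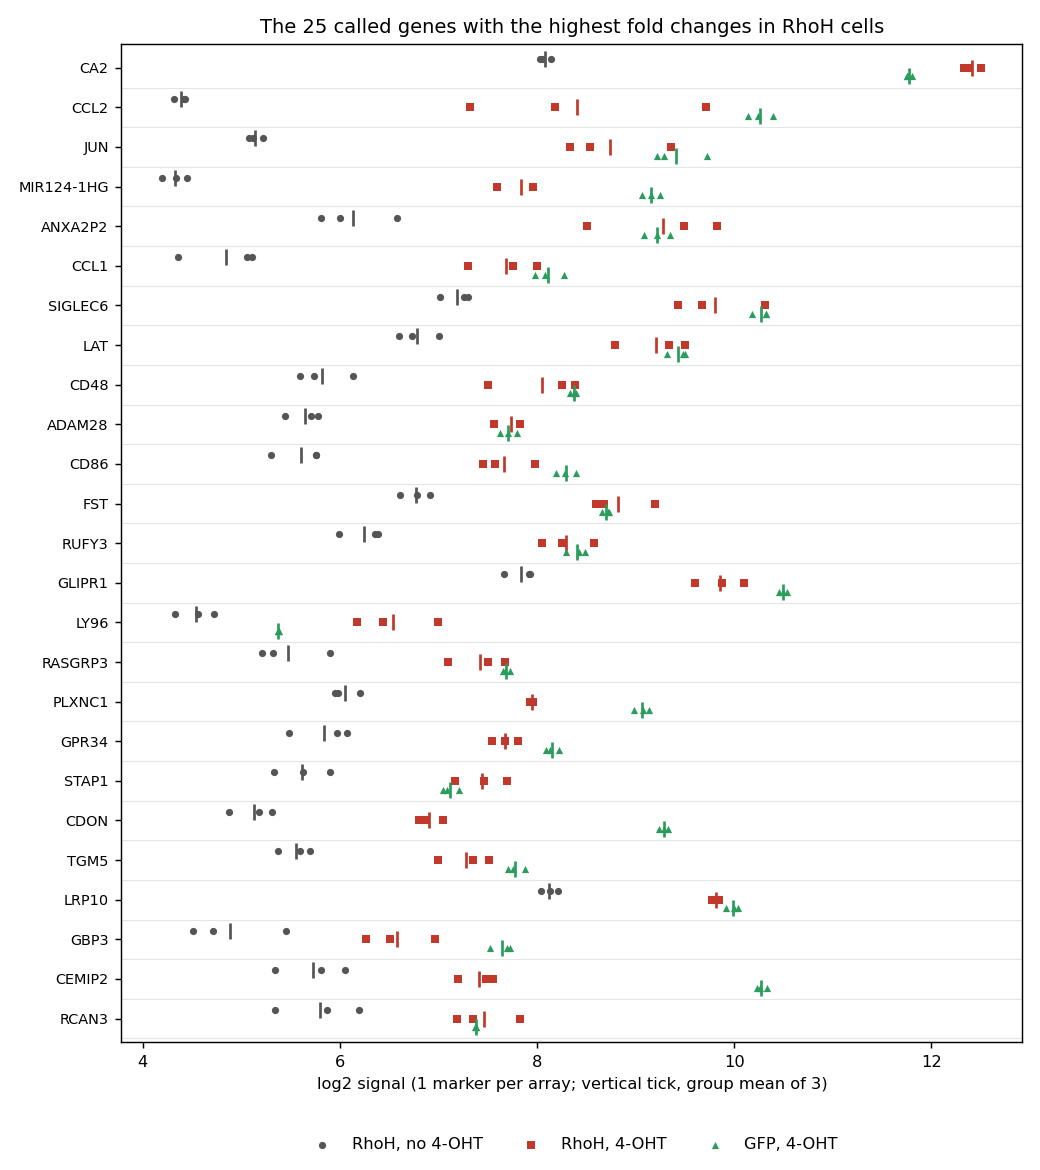
Log2 signals of the 25 called genes with the highest fold changes, 1 marker per array, for uninduced RhoH (grey circles), induced RhoH (red squares) and GFP cells with 4-OHT (green triangles), with a vertical tick at each mean of 3. The red and grey markers do not overlap for any of the 25 genes, and for CEMIP2 and CDON the green markers lie far to the right of the red ones.

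Several of the other highest genes encode receptors or proteins at the cell surface. SIGLEC6, a receptor for sialic acids, rose from 7.30, 7.01 and 7.26 to 10.32, 9.68 and 9.43, or 6.14-fold. CD48, a ligand of the receptors CD2 and CD244, went from 5.59, 6.13 and 5.74 to 8.26, 7.50 and 8.39. CD86, a co-stimulatory ligand of CD28 on antigen-presenting cells, went from 5.75, 5.75 and 5.30 to 7.98, 7.45 and 7.57. In each of these the induced arrays were well above the uninduced ones, and none differed from GFP past the threshold (adjusted p = 0.263 for SIGLEC6, 0.515 for CD48 and 0.0622 for CD86). LY96 (MD-2), which binds lipopolysaccharide together with TLR4, behaved differently. It rose from 4.32, 4.72 and 4.56 to 6.99, 6.17 and 6.44, and the GFP arrays were at 5.38, 5.37 and 5.37. LY96 was thus 1.16 higher in induced RhoH than in GFP cells (limma adjusted p = 0.00657). Further receptors among the 25 were PLXNC1, a plexin that binds semaphorins (1.90), GPR34, a receptor for lysophosphatidylserine (1.83), CDON, a co-receptor of hedgehog signalling (1.78), and LRP10, a member of the lipoprotein receptor family (1.69).

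Others encode signalling and transport proteins. LAT, the membrane adaptor that couples the T cell receptor and mast cell Fc receptors to downstream enzymes, rose from 7.01, 6.74 and 6.60 to 9.50, 8.79 and 9.34. The groups were far apart, and the rise was 5.39-fold (2.43, SE 0.18, adjusted p = 7.28e-05). RASGRP3, an exchange factor for Ras proteins driven by diacylglycerol, rose by 1.95. STAP1, an adaptor downstream of the B cell receptor, rose by 1.83. RCAN3, an inhibitor of calcineurin, rose by 1.66. RUFY3, an adaptor in lysosome and endosome transport, rose by 2.05.

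The rest of the 25 were secreted, membrane or interferon-inducible proteins. ADAM28, a metalloprotease of lymphocytes, went from 5.78, 5.71 and 5.45 to 7.83, 7.82 and 7.56, and the GFP arrays lay among the induced ones (induced minus GFP 0.03, limma adjusted p = 0.923). FST (follistatin), which binds and blocks activins, rose by 2.06, GLIPR1 by 2.02, TGM5 (a transglutaminase) by 1.73 and GBP3 (a guanylate-binding protein induced by interferon) by 1.69. CEMIP2, a cell surface hyaluronidase, rose from 5.81, 6.05 and 5.34 to 7.19, 7.56 and 7.48. Its GFP arrays were far higher, at 10.23, 10.27 and 10.33, a difference of -2.87 for induced minus GFP (adjusted p = 2.58e-05). All 25 genes kept their calls in each of the 18 alternatives. Against GFP, 17 of the 25 did not differ past the threshold, 2 (CA2 and LY96) were higher and 6 lower in the induced RhoH arrays, where 4.49% of all genes (664) were called. The induced arrays are part of both comparisons.

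Counts of called members in the gene groups below stand beside the 3.78% called among all genes. Early response genes, which include the AP-1 subunits and react quickly to growth and stress signals, included JUN and other rising members. Of 22 measured, 5 rose and none fell (22.7% called), with a median of 0.34 over the list. Next to JUN these were JUND (1.47), JUNB (1.16), the zinc finger factor KLF10 (1.10) and the small MAF protein MAFG (0.77). JUND was at 7.93, 8.34 and 8.35 without 4-OHT and at 9.41, 9.57 and 10.04 with it. JUNB went from 8.59, 8.97 and 8.72 to 9.56, 9.70 and 10.50. For both, induced replicate 3 was the highest array of all RhoH arrays. The FOS subunits, partners of JUN in AP-1, did not pass the threshold. FOS was at 6.22, 7.23 and 6.61 and then at 7.71, 7.54 and 8.99 (1.40, adjusted p = 0.0994), with wide spread in both groups. FOSL1 was at 0.43 (0.0717), FOSL2 at 0.34 (0.490), FOSB at 0.21 (0.759) and EGR1, another early response factor, at 1.24 (0.170). JUNB lost its call without uninduced replicate 1 or 3 (up to 0.0808 without replicate 3) and MAFG when any of 5 arrays was left out (up to 0.0671 without induced replicate 2), so that 3 of the 22 were called without uninduced replicate 1 or 3.

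The promoters of JUN and JUND, which encode AP-1 subunits, and of LAT are shown as examples of genes that rose with 4-OHT. Each is the 250 bases before the gene's start, on the gene's own strand, from RefSeq on build GRCh38.p14. The motifs searched on both strands were the AP-1 site TGANTCA, the cyclic AMP element TGACGTCA, a core of interferon regulatory factor sites GAAANNGAA, the STAT site TTCNNNGAA and the NF-kB site. Capitals mark the AP-1 match in LAT and the cyclic AMP element in JUND. JUN lies at chr1:58784048-58784297 on the minus strand, JUND at chr19:18281623-18281872 on the minus strand and LAT at chr16:28984553-28984802 on the plus strand.
JUN: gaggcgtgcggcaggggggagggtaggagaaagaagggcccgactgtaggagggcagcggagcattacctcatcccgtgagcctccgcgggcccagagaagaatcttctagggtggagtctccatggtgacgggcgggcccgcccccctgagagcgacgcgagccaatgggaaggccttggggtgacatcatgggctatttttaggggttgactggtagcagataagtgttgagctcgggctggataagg
JUND: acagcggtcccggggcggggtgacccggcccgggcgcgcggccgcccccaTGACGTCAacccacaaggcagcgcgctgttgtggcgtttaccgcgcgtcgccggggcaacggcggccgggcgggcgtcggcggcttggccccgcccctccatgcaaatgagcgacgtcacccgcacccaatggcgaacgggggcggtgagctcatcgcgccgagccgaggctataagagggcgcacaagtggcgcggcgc
LAT: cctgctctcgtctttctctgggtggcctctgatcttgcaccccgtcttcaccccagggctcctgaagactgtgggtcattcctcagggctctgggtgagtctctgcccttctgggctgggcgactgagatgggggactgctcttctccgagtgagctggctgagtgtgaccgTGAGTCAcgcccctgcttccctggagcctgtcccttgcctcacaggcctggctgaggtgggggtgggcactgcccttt
The JUN window held none of the 5 motifs in the exact letters searched. It does hold TGACATCA, which is the cyclic AMP element with an A in place of its G. Such close variants were not searched in any window. Over all 27305 promoter windows of this length 6.57% held the AP-1 letters and 1.75% the cyclic AMP element. Of the 25 highest genes 17 had a window, and 3 of these (FST, GBP3 and LAT) held the AP-1 letters. Of the 12 windows among the 15 lowest genes none did. LAT is thus shown as a window with the AP-1 letters, which most windows of the highest genes lacked. A match of letters is a description and not evidence of binding.

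Of the feedback regulators of MAP kinases 12.5% were called, and of the NF-kB pathway genes 18.8%, against 3.78% of all genes. Of 16 MAP kinase phosphatases and related regulators 2 rose and none fell (median 0.07). DUSP10, a phosphatase of JNK and p38, went from 8.07, 8.35 and 8.20 to 9.92, 9.56 and 9.96, a 3.04-fold rise (adjusted p = 7.74e-05). DUSP6, a phosphatase of ERK, rose by 0.87, while its relatives DUSP4 (0.36, adjusted p = 0.138), DUSP1 (0.07) and DUSP5 (-0.11) did not pass. Of 16 NF-kB pathway genes, the deubiquitinase CYLD (0.58) and the kinase MAP3K8 (0.67) rose and TRAF3, which restrains the non-canonical pathway, fell (-0.43). All of these except DUSP10 lost their calls in some single-array omissions, DUSP6 up to an adjusted p of 0.0514 (without induced replicate 1), CYLD 0.0642 (induced replicate 2), MAP3K8 0.0770 and TRAF3 0.181 (both uninduced replicate 3). Without both replicate 1 arrays DUSP10 was the only phosphatase called. The NF-kB count of 3 thereby dropped to 0 without uninduced replicate 3.

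Kinases and adaptors close to antigen receptors had 5 of 18 measured members higher and none lower, with a median of 0.22. Besides LAT, the Src family kinase LYN went from 8.62, 8.76 and 8.59 to 9.67, 9.58 and 9.80, a 2.04-fold rise (adjusted p = 0.000186). FGR, another Src family kinase of myeloid cells, rose by 0.55, and the docking adaptors GAB2 and GAB3 rose by 0.66 and 0.60. ZAP70, the kinase that RhoH is known to bind, was low and did not pass, at 6.08, 5.99 and 6.15 without and 6.12, 6.03 and 6.26 with 4-OHT (0.07, adjusted p = 0.871). Its relative SYK, which myeloid cells use in its place, was bright and at -0.08 (0.864). The Src family kinase LCK was at -0.12 (0.747) and the B cell and myeloid kinase BTK at -0.18 (0.641). FGR lost its call when any of 7 arrays was left out (up to 0.0891 without uninduced replicate 2) and GAB3 with any of 4 (up to 0.0654 without induced replicate 1). Without GFP replicate 2 or 3 the count of 5 was 3.

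Sialic acid-binding SIGLEC receptors, most of which carry inhibitory motifs, had 6 of 12 measured members higher and none lower. The list median was 0.43. After SIGLEC6 came SIGLEC12 (1.06), SIGLEC5 (0.80), SIGLEC10 (0.76), the activating SIGLEC14 (0.61) and SIGLEC7 (0.49). SIGLEC5 went from 7.72, 7.91 and 7.82 to 8.87, 8.39 and 8.57, and SIGLEC12 from 6.21, 5.84 and 5.96 to 6.98, 6.98 and 7.23. SIGLEC9 (0.36, adjusted p = 0.216), SIGLEC8 of eosinophils (0.08, 0.926) and SIGLEC11 (-0.23, 0.489) did not pass. Several SIGLEC genes are near-identical in part, SIGLEC5 and SIGLEC14 above all, so their probe sets may share signal. SIGLEC10 reached an adjusted p of 0.0768 and SIGLEC7 of 0.131 without uninduced replicate 2.

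The SLAM and CD2 family, homophilic and heterophilic adhesion receptors of leukocytes, had 4 of 10 members higher. CD48 was joined by SLAMF6 (1.45), CD84 (1.33) and CD58 (0.68). SLAMF6 went from 6.02, 6.48 and 6.37 to 7.78, 7.81 and 7.64, and CD84 from 6.58, 6.98 and 6.86 to 8.34, 8.11 and 7.95. For both genes the induced arrays also exceeded the GFP arrays, which were at 7.12 in each for SLAMF6 (induced minus GFP 0.62, limma adjusted p = 0.0166) and at 7.69, 7.70 and 7.69 for CD84 (0.44, 0.0876). SLAMF1 (-0.05) and SLAMF7 (0.00) did not pass. CD58 lost its call with any of 4 arrays left out (up to 0.0679 without induced replicate 1).

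Of 13 B7 family and co-stimulation genes, CD86 alone rose (7.69%, against 3.78% of all genes). Its close relative CD80, which binds the same receptors, was at 4.94, 4.94 and 4.81 and at 5.07, 4.87 and 4.86 (0.04, adjusted p = 0.934). Of 8 measured antigen presentation genes, the peptide-trimming enzyme ERAP2 (0.89) and tapasin, TAPBP (0.60), which loads peptides onto class I molecules, rose. The 5 probe sets of TAPBP gave fold changes between 0.58 and 0.60. Of 10 Fc and immunoglobulin-like receptors, TREM1, which amplifies inflammatory signals (0.80), CD300LF (0.76) and CD300LB (0.63) rose. ERAP2 reached an adjusted p of 0.0759 without induced replicate 2 and lost its call with any of 4 arrays left out, and CD300LB 0.0561 without uninduced replicate 2.

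Chemokines as a class did not follow CCL2 and CCL1. Of 38 measured these were the only called ones (5.26%, against 3.78% of all genes), and the list median was -0.02. CXCL8, which attracts neutrophils, was at 8.81, 9.27 and 8.50 without and 10.23, 9.92 and 10.30 with 4-OHT (1.29, limma adjusted p = 0.0628), so its arrays did not overlap although it missed the threshold. CCL7, a close relative and neighbour of CCL2, was at 3.73, 3.62 and 3.58 and at 3.97, 3.10 and 3.51 (-0.11, 0.885). CCL4 was at 0.52 (0.279) and CCL3 at -0.24 (0.447). Of 34 chemoattractant receptors 3 rose. CCR1, a receptor for several of the CC chemokines, went from 6.0, 6.37 and 6.46 to 7.86, 7.65 and 8.19, a 3.08-fold rise (adjusted p = 0.000344). The anaphylatoxin receptor C3AR1 (0.89) and the formyl peptide receptor FPR2 (0.85) also rose. FPR2 was at 6.09, 6.31 and 6.45 in the induced arrays against 8.08, 8.01 and 8.06 in the GFP ones.

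Among other receptors, 4 of 28 cytokine and cytokine receptor genes rose and none fell. The interleukin receptor chains IL18R1 (0.66), IL18RAP (0.54) and IL17RA (0.48) and the interferon gamma receptor chain IFNGR2 (0.39) were these. IL18R1 and IL18RAP, the chains of 1 receptor, both stayed below their GFP levels (induced minus GFP -0.76, adjusted p = 0.00289, and -1.42, 0.000173). Of 20 JAK, STAT and SOCS genes, SOCS7 (0.86), the kinase PIM1 (0.64) and JAK1 (0.53) rose. Of 10 integrins and partners, FERMT3 (kindlin-3), which activates leukocyte integrins, rose by 0.40. Without uninduced replicate 3, FERMT3 was at an adjusted p of 0.136, IL18RAP 0.131, IFNGR2 0.121 and IL17RA 0.0631, so IL18R1 alone was called among the cytokine genes. Without uninduced replicate 1, PIM1 was at 0.0888 and JAK1 at 0.0752, and SOCS7 alone was called in its group when any of 8 single arrays was left out.

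Interferon response genes, which interferons switch on through STAT and IRF factors to limit viruses, formed the group with the most called members. Of 44 measured 14 rose and none fell, with a median of 0.34, and 38 had a fold change above 0. IRF1, a transcription factor that is itself induced by interferon gamma, went from 6.50, 7.40 and 7.13 to 8.19, 8.55 and 9.01. Its arrays spread in both groups and did not overlap, for a 2.97-fold rise (1.57, SE 0.24, limma adjusted p = 0.00551). BST2 (tetherin), which holds budding virions at the cell surface, went from 5.27, 5.81 and 6.04 to 6.92, 7.08 and 7.47. SAMD9L, a growth-restraining relative of SAMD9, went from 6.61, 6.90 and 7.24 to 8.30, 8.49 and 8.49. IFIT3, which helps bind viral RNA, went from 4.68, 4.08 and 4.53 to 5.50, 5.56 and 5.56.

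The other called members spanned sensors, ubiquitin ligases and nuclear body proteins. The RNA sensors RIGI (0.67) and IFIH1 (0.53) rose. So did the ligases DTX3L (0.89) and TRIM22 (0.83), the nuclear body proteins SP110 (0.96) and SP100 (0.65), IRF2 (0.72), SAMD9 (0.62), PLSCR1 (0.48) and GBP3. Other canonical members did not pass. ISG15, a ubiquitin-like modifier, was at 7.11, 7.21 and 7.21 and at 6.91, 7.11 and 7.57 (0.02, adjusted p = 0.981). IFIT1, the partner of IFIT3, was at 0.49 (0.0579), IFIT2 at 0.33 (0.156), IRF7 at 0.47 (0.147), IRF9 at 0.13 (0.645) and IFI44L at -0.08 (0.830). IFIH1 and PLSCR1 lost their calls with any of 7 arrays left out (up to 0.118 and 0.105 without uninduced replicate 3) and TRIM22 with any of 2 (up to 0.0682 without uninduced replicate 3). Without the replicate 1 arrays 13 of the 44 were called, and with the 6 RhoH arrays alone 11.

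The promoters of IRF1, IFIT3 and BST2 are shown because they are members of the interferon group whose windows hold letters of the STAT or interferon regulatory factor sites. They are the 250 bases before each start in RefSeq on GRCh38.p14, at chr5:132490774-132491023 (minus strand) for IRF1, chr10:89327747-89327996 (plus strand) for IFIT3 and chr19:17405631-17405880 (minus strand) for BST2. Capitals mark the STAT site in IRF1, the interferon regulatory factor core in IFIT3, and both of these in BST2.
IRF1: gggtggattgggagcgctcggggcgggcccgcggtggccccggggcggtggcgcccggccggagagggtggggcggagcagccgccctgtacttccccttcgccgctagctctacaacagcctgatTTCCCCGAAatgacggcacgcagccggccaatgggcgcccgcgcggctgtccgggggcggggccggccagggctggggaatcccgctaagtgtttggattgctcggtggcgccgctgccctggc
IFIT3: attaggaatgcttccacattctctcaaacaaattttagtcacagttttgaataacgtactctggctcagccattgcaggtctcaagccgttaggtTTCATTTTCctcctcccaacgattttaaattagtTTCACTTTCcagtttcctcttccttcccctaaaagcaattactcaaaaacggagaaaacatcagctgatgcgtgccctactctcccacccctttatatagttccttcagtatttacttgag
BST2: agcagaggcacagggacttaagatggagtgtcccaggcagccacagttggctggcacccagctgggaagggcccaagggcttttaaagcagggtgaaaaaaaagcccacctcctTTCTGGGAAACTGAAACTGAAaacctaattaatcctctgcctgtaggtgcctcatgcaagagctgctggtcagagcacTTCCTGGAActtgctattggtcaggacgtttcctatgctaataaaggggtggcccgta
Of the 14 called interferon genes 12 had a window. The interferon regulatory factor core was found in 5 (BST2, IFIH1, IFIT3, PLSCR1 and SAMD9), against 7.07% of all windows and none of 17 among the 25 highest genes. The STAT site was found in 3 (BST2, GBP3 and IRF1), against 6.76% of all windows, and the NF-kB site in 4, against 9.58%. The list was made of interferon response genes, and its uncalled members were not counted apart. These shares therefore cannot tell the called members from the uncalled ones, and binding was not tested.

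Receptors that sense microbes had 5 of 30 measured members higher and 1 lower. TLR6 and TLR1, which each pair with TLR2 to detect bacterial lipopeptides, rose by 1.54 and 1.13. TLR6 went from 4.42, 4.20 and 4.83 to 6.02 on each of the induced arrays, and TLR1 from 5.46, 5.88 and 5.88 to 6.84, 6.83 and 6.94. Their partner TLR2 was at 7.01, 7.41 and 7.60 and at 7.06, 7.43 and 7.23 (-0.10, adjusted p = 0.880). LY96 rose as given above while its partner TLR4 was at 8.62, 8.92 and 8.88 and at 8.76, 8.84 and 9.13 (0.11, 0.812). CD180, a TLR4-like receptor, rose by 0.63 and the adaptor MYD88 by 0.67. UNC93B1, which carries endosomal TLRs to their compartment, fell (-0.34), and the endosomal receptors TLR7 (0.05) and TLR8 (0.31) did not pass. Without uninduced replicate 3 UNC93B1 was at an adjusted p of 0.148 and MYD88 at 0.0944, and without uninduced replicate 2 CD180 was at 0.133. The count of 6 was 3 without both replicate 1 arrays, and also 3 without uninduced replicate 1 or 3, induced replicate 1 or any 1 GFP array.

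Granule and lineage genes gave a mixed picture. CD63, a tetraspanin of granule membranes that marks degranulation when exposed, went from 6.89, 6.97 and 7.05 to 8.53, 8.41 and 8.53, a 2.87-fold rise (limma adjusted p = 1.19e-05). CD68, a lysosomal protein of phagocytes, rose 2.16-fold, from 9.06, 9.10 and 8.91 to 10.32, 9.85 and 10.23. These were 2 of 10 measured genes of the phagocyte oxidase and granule membranes. Of 11 azurophil granule and promyelocyte genes, CTSG fell and KIT, the stem cell factor receptor, rose by 0.67 from a low level (4.22, 4.06 and 3.94 to 4.76, 4.70 and 4.76). MPO was at 13.36, 13.41 and 13.40 and at 13.06, 13.17 and 13.14 (-0.26, adjusted p = 0.109). Of 26 maturation genes of neutrophils and monocytes, HP (haptoglobin) alone rose, a share of 3.85% that was near the 3.78% of all genes. HP went from 7.62, 7.73 and 7.56 to 9.09, 9.01 and 9.18. The bright pair S100A8 (0.04, adjusted p = 0.948) and S100A9 (0.13, 0.799) did not pass.

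Of 16 genes of eosinophils, mast cells and basophils, GATA2, KIT and CPA3 rose. GATA2, a transcription factor of mast cells and progenitors, went from 7.93, 8.28 and 8.16 to 9.21, 9.11 and 9.16, or 2.05-fold (adjusted p = 0.000347). CPA3, a mast cell carboxypeptidase, went from 7.31, 7.45 and 7.68 to 8.41, 8.27 and 8.13. Both lay above the GFP arrays as well, which were at 8.54, 8.48 and 8.43 for GATA2 (induced minus GFP 0.67, adjusted p = 0.00444) and at 6.16, 6.52 and 6.39 for CPA3 (1.91, 4.74e-05). EPX was at 10.02, 10.14 and 9.43 without and 9.36, 9.15 and 8.85 with 4-OHT, a difference of -0.75 that missed the threshold (0.0560). The Charcot-Leyden crystal gene CLC was at -0.19 (0.895), with replicate 1 the highest array in both RhoH groups. Of 34 haematopoietic transcription factors, GATA2 and IKZF2 (0.79) rose and MYC fell, and 5 were called without induced replicate 3. IKZF2 lost its call with 8 of the 9 arrays left out singly (up to 0.124 without uninduced replicate 1), and CPA3 without both replicate 1 arrays (0.0533).

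The falling genes changed less. ANKRD18A, an ankyrin repeat gene, was at 8.25, 8.96 and 8.99 without and 7.76, 8.03 and 7.27 with 4-OHT (-1.05, limma adjusted p = 0.0381), so its groups came close to each other. POLR3G, a subunit of RNA polymerase III that is abundant in undifferentiated cells, fell 2.04-fold, from 7.41, 7.55 and 7.10 to 6.19, 6.48 and 6.32 (-1.03, SE 0.13, adjusted p = 0.00218). IFT57, part of the machinery that moves cargo along cilia, fell from 8.71, 8.83 and 8.81 to 7.58, 7.91 and 8.03 (-0.95, 0.00199). For both genes the groups were clearly separate. MYC, a transcription factor that drives growth, fell 1.80-fold from 11.64, 11.67 and 11.73 to 10.62, 10.83 and 11.05 (-0.85, SE 0.11, 0.00287). ASS1, which makes argininosuccinate on the way to arginine, fell from 11.22, 11.37 and 11.21 to 10.42, 10.32 and 10.59 (-0.82, 0.00220). POLR3G, IFT57, MYC and ASS1 were the 4 of the 15 lowest genes that kept their calls in all 18 alternatives.

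**Figure D3:**
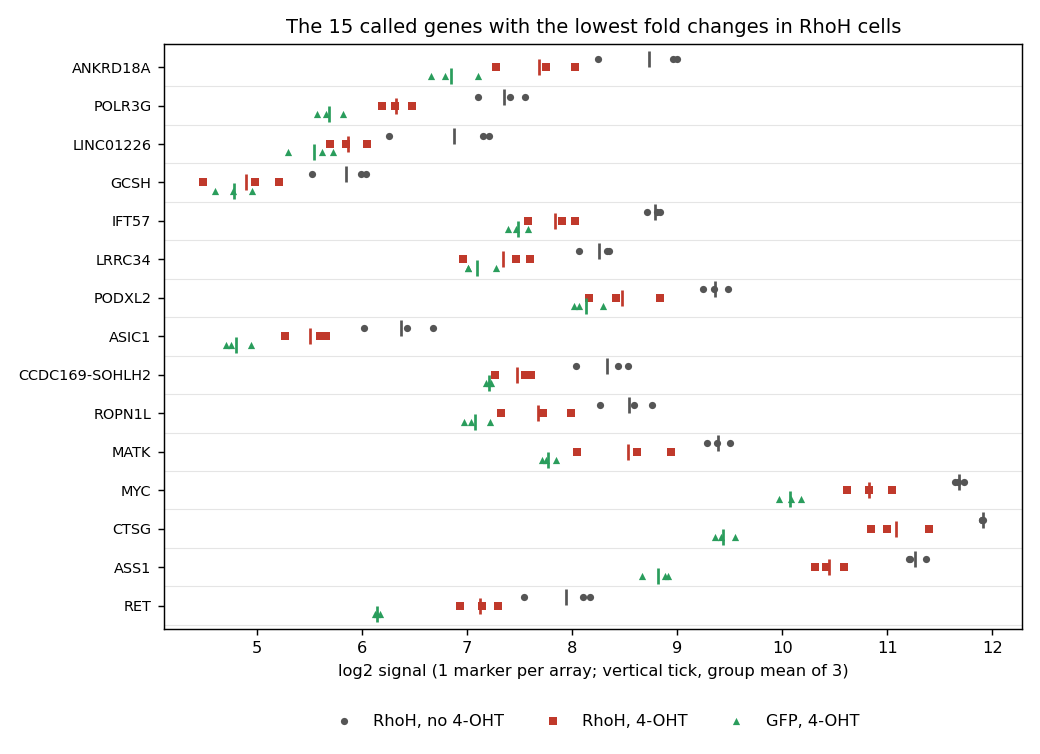
Log2 signals of the 15 called genes with the lowest fold changes, 1 marker per array, for uninduced RhoH (grey circles), induced RhoH (red squares) and GFP cells with 4-OHT (green triangles), with a vertical tick at each mean of 3. Red markers lie left of the grey ones for every gene, and for CTSG and ASS1 the green markers lie further left still.

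CTSG, a serine protease of azurophil granules, fell from 11.90, 11.91 and 11.92 to 10.84 on induced replicate 2 and 11.40 on replicate 3, with replicate 1 between them (-0.83, adjusted p = 0.00703). The uninduced arrays were nearly equal and the induced ones spread more widely, all below them. The call was lost without both replicate 1 arrays (adjusted p = 0.0541). The GFP arrays were lower again, at 9.36, 9.55 and 9.42. Other members of the 15 were GCSH of the glycine cleavage system (-0.96), the sialomucin PODXL2 (-0.89), the proton-gated channel ASIC1 (-0.87), the kinase MATK (-0.85), the receptor tyrosine kinase RET (-0.82), LRRC34 (-0.91), ROPN1L, a protein of sperm and cilia (-0.86), CCDC169-SOHLH2 (-0.86) and LINC01226 (-1.01). When uninduced replicate 3 was left out, the calls of 9 genes were lost: LINC01226 (0.164), ANKRD18A (0.151), MATK (0.132), GCSH (0.107), ROPN1L (0.103), RET (0.0888), ASIC1 (0.0789), PODXL2 (0.0667) and LRRC34 (0.0652). Against GFP, 8 of the 15 did not differ past the threshold and 7 were higher in the induced RhoH arrays.

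Genes that make ribosomes and RNA polymerases had called members in the lower direction alone. Of 25 measured 5 fell, the list median was -0.31 and only 3 of the 25 had a fold change above 0. After POLR3G came RRP12 (-0.79), which exports pre-ribosomes, BOP1 of large subunit maturation (-0.65), nucleolin, NCL (-0.38), and NOP58 of small nucleolar particles (-0.31). NOP58 was at 10.99, 10.95 and 10.97 and then at 10.63, 10.69 and 10.65, with arrays of a group very close. RRP12 fell from 9.69, 9.70 and 9.88 to 8.48, 9.18 and 9.24, with induced replicate 1 the lowest. FBL, the methyltransferase partner of NOP58, was at -0.12 (adjusted p = 0.872) with induced replicate 3 above all uninduced arrays. A dimmer probe set of BOP1 gave -0.36 (0.665). Without uninduced replicate 3 NCL was at 0.169, BOP1 at 0.161, RRP12 at 0.138 and NOP58 at 0.135, so that POLR3G alone was called, and 1 of the 25 was called also without uninduced replicate 2 or any 1 GFP array. Without both replicate 1 arrays 2 of the 25 were called.

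The share of mitochondrial ribosomal protein genes called was near that of all genes (4.11% against 3.78%). Of 73 measured 3 fell and none rose, with a median of -0.16: MRPL15 (-0.63), MRPS31 (-0.43) and MRPL48 (-0.42). MRPL15 went from 9.57, 9.48 and 9.58 to 8.65, 8.96 and 9.13. MRPS31 was at an adjusted p of 0.137, MRPL15 at 0.0738 and MRPL48 at 0.0735 without uninduced replicate 3. That count of 3 was 0 without uninduced replicate 3 and 11 without induced replicate 3. Of 51 cytosolic ribosomal protein genes none was called by limma and the median was -0.10. An unadjusted p under 0.05 was seen for 10 of them, and for 2139 of all 14778 genes. Of 17 aminoacyl-tRNA synthetases 1 was called (5.88%). This was LARS1, which loads leucine and fell (-0.53, adjusted p 0.123 without uninduced replicate 3). A fold change above 0 was seen for 1 of the 17. Among 27 respiratory chain and ATP synthase genes none was called and 3 had an unadjusted p under 0.05 (median -0.08).

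Amino acid and one-carbon metabolism also had falling members. Of 23 genes of serine, glycine and one-carbon metabolism 3 fell and none rose, with a median of -0.28. Besides GCSH these were MTHFD1L, a mitochondrial enzyme that makes formate (-0.69), and ADSL of purine synthesis (-0.43). MTHFD1L went from 9.21, 9.21 and 9.29 to 8.18, 8.77 and 8.69. PHGDH, the first enzyme of serine synthesis, was at -0.15 (adjusted p = 0.781) and SHMT2, which makes glycine, at -0.18 (0.323). MTHFD1L was at 0.0932 and ADSL at 0.0820 without uninduced replicate 3. The count of 3 was 0 without uninduced replicate 2 or 3 and 6 without induced replicate 3. Of 23 genes that respond to unfolded proteins or amino acid shortage 4 fell and 1 rose. ATF5, a stress-induced transcription factor (-0.72), asparagine synthetase ASNS (-0.59), the secreted chaperone partner MANF (-0.58) and SDF2L1 of the endoplasmic reticulum (-0.55) fell. CRELD2, which resides in the same compartment, rose from 6.54, 6.67 and 6.51 to 7.44, 7.56 and 7.84 (1.04, adjusted p = 0.000653). DDIT3, the stress factor CHOP, was at 0.16 (0.734). ASNS reached an adjusted p of 0.107 without uninduced replicate 1, and ATF5 0.104 and MANF 0.0776 without uninduced replicate 2. The count of 5 was 2 when any of 7 single arrays was left out and 3 without both replicate 1 arrays.

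Of 37 ciliary and intraflagellar transport genes 4 fell and none rose (median -0.10). They were IFT57, LRRC34, ROPN1L and BBS5, a subunit of the BBSome that sorts ciliary cargo. BBS5 went from 6.12, 6.41 and 6.62 to 5.41, 5.68 and 5.68 (-0.79, adjusted p = 0.0137, and 0.0550 without uninduced replicate 3). IFT88, a partner of IFT57, was at -0.29 (0.371). Without uninduced replicate 3 IFT57 alone was called.

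**Figure D4:**
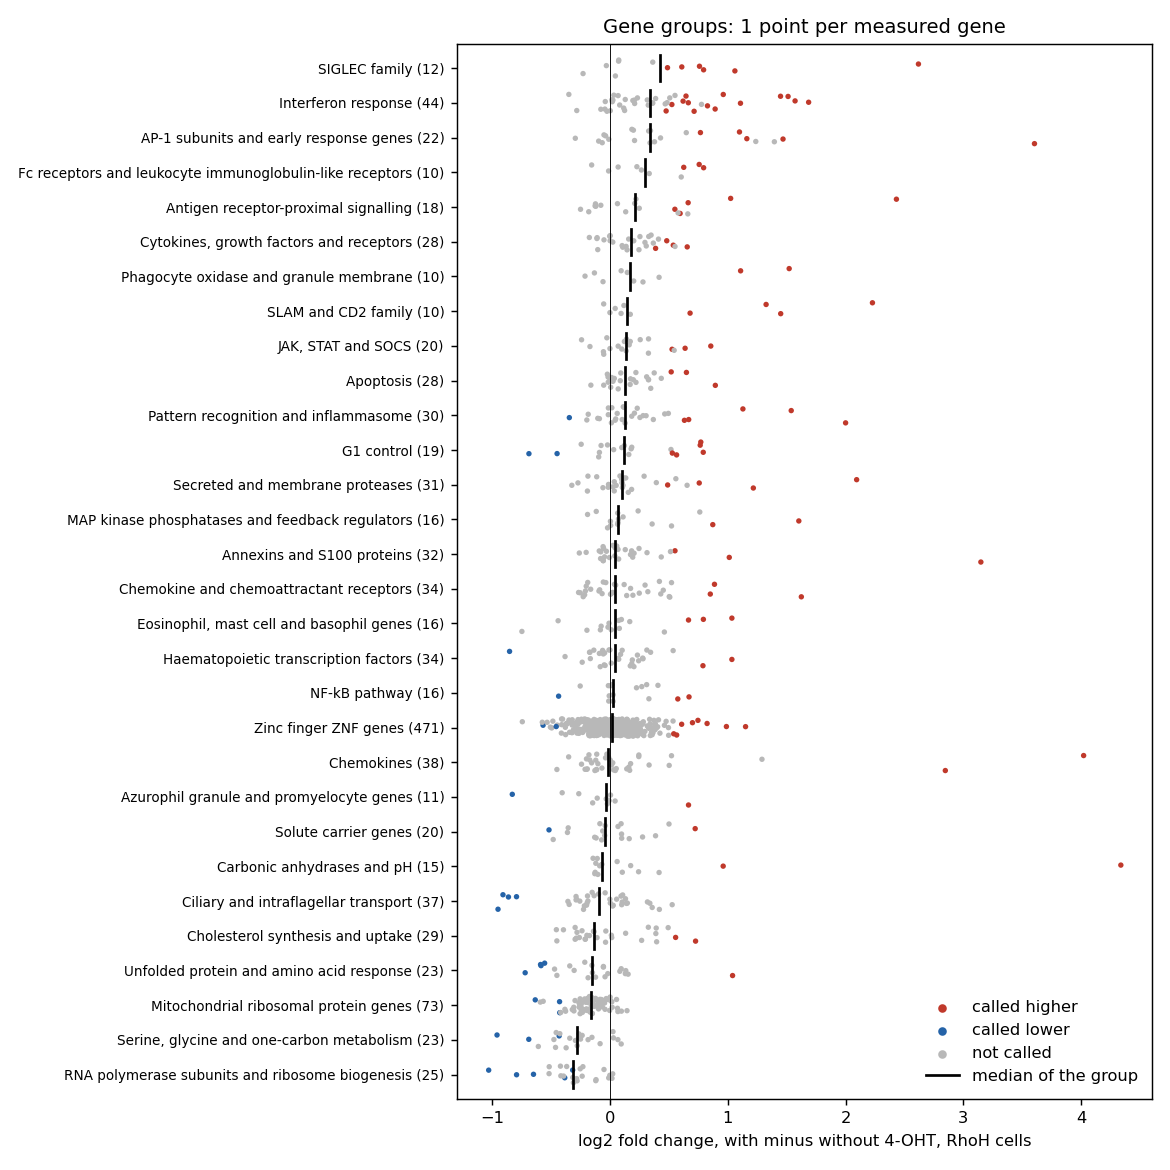
Log2 fold changes with minus without 4-OHT (horizontal axis) of the measured members of 30 gene groups with at least 10 measured and 2 called members, 1 point per gene, with called genes in red (higher) or blue (lower) and the group median as a black bar. Ribosome biogenesis (median -0.31) is at the bottom of the order and SIGLEC receptors (median 0.43) are at the top.

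G1 control genes changed in both directions. Of 19 measured 5 rose and 2 fell. Among the cyclins, CCNE2, the partner of CDK2, rose by 0.79, CCND3 by 0.77 and CCNG2, linked to growth arrest, by 0.77. CCND3 went from 6.65, 6.87 and 6.67 to 7.53, 7.41 and 7.57. CCND2, the other D-type cyclin called, fell from 9.48, 9.54 and 9.61 to 8.59, 8.88 and 9.10 (-0.69), and a dimmer probe set of it gave -0.19 (adjusted p = 0.874). CDK6, the kinase of D-type cyclins, fell from 10.68, 10.78 and 10.77 to 10.15, 10.45 and 10.30 (-0.45). The repressive E2F factors E2F7 (0.57) and E2F8 (0.53) rose. Of 41 genes of DNA replication and mitosis NUSAP1 alone rose (0.42), a share of 2.44% against 3.78% of all genes. The proliferation marker MKI67 was at 0.23 (0.264). Without uninduced replicate 3 CDK6 was at an adjusted p of 0.103, CCND2 at 0.0650, E2F7 at 0.0543 and NUSAP1 at 0.0536, and 4 of the 19 G1 genes were called.

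Of 28 apoptosis genes 3 rose and none fell. APAF1, the scaffold of the apoptosome, went from 8.05, 8.52 and 8.58 to 9.29, 9.37 and 9.17 (0.90, limma adjusted p = 0.00532). BCL2L11, which encodes the death-promoting protein BIM, rose by 0.65 and the necroptosis kinase RIPK3 by 0.52. BCL2 (-0.02, adjusted p = 0.969) and MCL1 (0.35, 0.151), which oppose BIM, did not pass. Without uninduced replicate 1 BCL2L11 was at 0.0985 and RIPK3 at 0.0780, and APAF1 alone was called without both replicate 1 arrays, any 1 uninduced or any 1 GFP array. Of 13 p53 target genes none was called by limma and 2 had an unadjusted p under 0.05, as did 2139 of all 14778 genes.

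Genes known to answer to the oestrogen receptor or to 4-OHT showed few calls. Of 23 measured RET alone fell (4.35%, near the 3.78% of all genes), and the median was -0.01. RET was at 7.54, 8.17 and 8.11 and then at 6.94, 7.14 and 7.29 (adjusted p = 0.0205), and in the GFP arrays at 6.12, 6.17 and 6.15. It lost its call with any of 4 arrays left out (up to 0.0888 without uninduced replicate 3). GREB1, a classical oestrogen target, was at -0.10 (0.740). Of 29 cholesterol synthesis and uptake genes 2 rose (6.9%, against 3.78% of all genes), while the median was -0.13. They were fatty acid synthase FASN (0.56) and INSIG1, which holds back sterol synthesis (0.73). The synthesis enzymes HMGCS1 (-0.45, 0.0523) and SQLE (-0.45, 0.0866) missed the threshold on the lower side. FASN reached 0.0853 without uninduced replicate 3 and INSIG1 0.0650 without induced replicate 2, and none of the 29 was called by limma without uninduced replicate 1 or 3 or induced replicate 2. Without both replicate 1 arrays 4 were called. Of 21 glycolysis and hypoxia genes none was called by limma and 6 had an unadjusted p under 0.05, as did 2139 of all 14778 genes.

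Families around the top genes did not move as wholes. Of 15 carbonic anhydrases and pH regulators, CA2 and CA8, a relative without catalytic activity, rose (CA8 by 0.96, from 8.15, 8.63 and 8.72 to 9.03, 9.77 and 9.59). CA13 was at 0.24 (adjusted p = 0.419), CA4 at 0.11 (0.785), CA1 at 0.06 (0.885) and CA12 at -0.10 (0.860). Of 32 annexins and S100 proteins, ANXA2P2, ANXA2 and ANXA1, which is known for dampening inflammation (0.55), rose. Without induced replicate 2 the count was 5. ANXA5 was at 0.44 (0.0513) and S100A10, the binding partner of annexin A2, at 0.19 (0.609). Of 31 proteases of the surface and secretory pathway 4 rose. With ADAM28 these were MMP14, which activates other metalloproteases (1.22, from 5.91, 6.08 and 5.67 to 6.81, 7.01 and 7.49), cathepsin S, CTSS (0.76), and the sheddase ADAM17 (0.49). ADAM17 was at an adjusted p of 0.111 and CA8 at 0.0724 without induced replicate 2.

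The zinc finger family was called less than the 3.78% of all genes. Of 471 zinc finger ZNF genes 8 rose and 2 fell (2.12%), and their median of 0.02 changed sign under renewed scaling. The higher ones were ZNF117 (1.15), ZNF385A (0.99), ZNF503 (0.83), ZNF846 (0.75), ZNF217 (0.70), ZNF792 (0.61), ZNF175 (0.57) and ZNF804A (0.54), and the lower ones ZNF704 (-0.57) and ZNF37A (-0.45). The count of 10 was 6 without uninduced replicate 3 or GFP replicate 1 or 3. Of 20 named solute carriers SLC66A1 rose (0.72) and SLC75A1 fell (-0.52). ZNF704 reached an adjusted p of 0.140 without uninduced replicate 2, and ZNF117 0.104 and ZNF175 0.0627 without induced replicate 1. ZNF37A was at 0.126, SLC75A1 at 0.0537 and ZNF792 at 0.0536 without uninduced replicate 3. None of the 21 small nucleolar RNA genes, 8 erythroid and megakaryocyte markers, 14 lymphocyte markers and 11 epithelial and stromal markers was called by limma, and none had an unadjusted p under 0.05.

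Protein-coding genes supplied most calls, with 426 higher and 109 lower of 11902 (4.50%). Of 1368 lncRNA genes 15 rose and 2 fell (1.24%), and of 437 transcribed pseudogenes 6 rose and none fell (1.37%). None of 1022 microRNA genes was called by limma. An unadjusted p under 0.05 was seen for 58 of them (5.68%), against 16.3% of the protein-coding genes and 2139 of all 14778 genes. The classes also differed in brightness, and dim genes were called less often. Median log2 signals were 6.8 for protein-coding, 5.28 for lncRNA, 5.51 for pseudogene and 4.63 for microRNA genes. Whether the shares differ at equal brightness was not tested. Pseudogenes of NCF1, a subunit of the phagocyte oxidase, rose: NCF1C went from 8.14, 8.16 and 8.12 to 9.59, 9.56 and 9.78, a 2.84-fold rise (limma adjusted p = 2.6e-05), and NCF1B rose 2.15-fold. These copies are near-identical to NCF1, so which of them gave the signal is uncertain. The lncRNA MILIP rose 2.43-fold, from 6.64, 6.62 and 6.72 to 7.44, 8.03 and 8.33. GAS5, a host gene of small nucleolar RNAs that accumulates when growth stops in other settings, fell from 10.24, 10.28 and 10.43 to 9.71, 9.95 and 9.53 (-0.59, adjusted p = 0.0199). NCF1C, NCF1B, MILIP and GAS5 are outside the rule for named genes and were chosen after their values were seen.

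The genes with the widest spread among replicates were not called. USP17L15, a member of a repeated deubiquitinase family, was at 8.38, 3.52 and 4.12 without 4-OHT and at 8.16, 4.18 and 4.33 with it, so replicate 1 was high in both groups. The microRNA gene MIR3689E was at 7.20, 3.84 and 3.34 and at 6.50, 3.53 and 3.94. Of the 37 genes that were high on replicate 1 in both groups, 19 were microRNA, 9 protein-coding and 3 lncRNA genes. MIR548C and MIR3140 showed another pattern, with induced replicate 3 low (3.35 and 3.00) against 6.24 and 6.70, and 5.40 and 6.46, on the other induced arrays. With both replicate 1 arrays left out 557 genes were called, 413 higher and 144 lower, and 434 of the 558 were among them in the same direction.

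**Figure D5:**
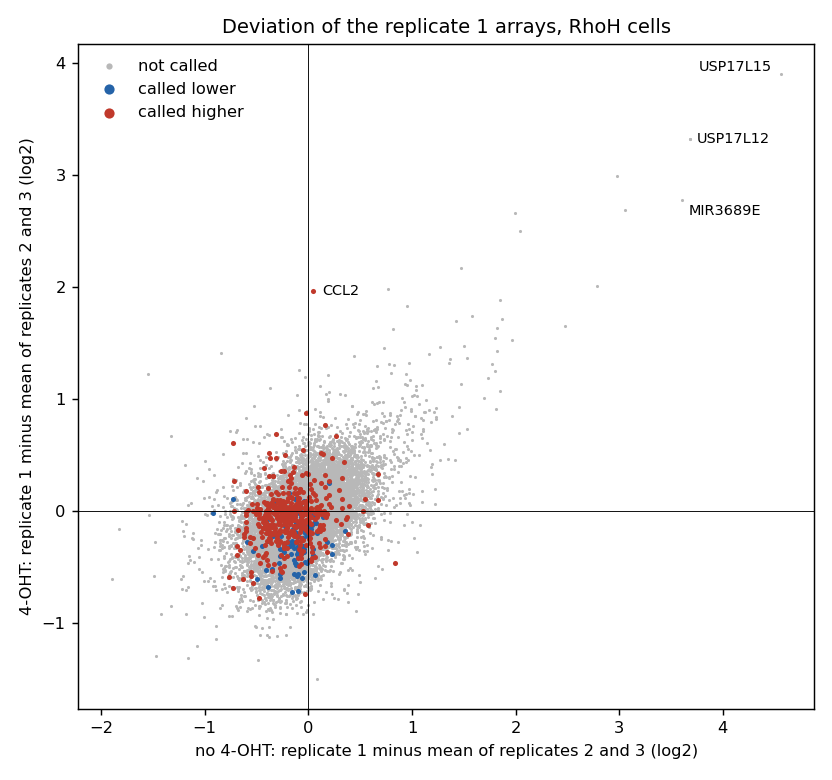
Deviation of replicate 1 from the mean of replicates 2 and 3 in log2 units, for uninduced (horizontal axis) and induced RhoH arrays (vertical axis), 1 point per gene, with called genes in colour. USP17L15, USP17L12 and MIR3689E lie far to the upper right among uncalled genes, and CCL2 lies high on the vertical axis alone.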

How the data were processed

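Transcripts were measured on Affymetrix arrays in 9 samples. The deposited values are on a log2 scale, made by the authors with Affymetrix Power Tools and RMA, per the submitters' processing notes, which also name limma. Versions and the array's genome build are not given in the sources used here. Because RMA fits all arrays together, an array's values depend on the others. Of 43550 probe sets 15659 carried 1 gene symbol in the platform annotation, 0 several and 27891 none, and all 15659 Entrez IDs matched RefSeq (GRCh38.p14). Each of 14778 genes was taken from its probe set with the highest mean over 9 arrays, a choice that applied to 521 genes.

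Group means were fitted with limma 3.58.1 in R 4.3.3 over all 9 arrays (6 residual and 3.86 prior degrees of freedom), and p-values were Benjamini-Hochberg adjusted over all genes. Calls were made below an adjusted p of 0.05. On simulated data of 14778 genes for this comparison, 83% of genes changed by 1 log2 unit and 98% of those changed by 2 were recovered, with 7 false calls. The simulation drew independent normal values with the same spread on every array for a gene. The real arrays differed in spread (limma array weights of 0.267 to 2.61), and the RhoH replicate 1 arrays shared high genes. These rates therefore need not hold for the real arrays. The text names the 25 highest and 15 lowest called genes and the called members of the gene lists reported, with RHOH and uncalled relatives. Those of all 52 lists make 161 genes. In all, 50 lists had measured members, those of proteasome and histone genes were not analysed here, and the results of 4 lists are not reported here. The comparison and the lists were chosen with earlier results of these data known. A total of 18 alternatives were tried. They were the 6 RhoH arrays alone, the replicate number as a block, renewed quantile normalisation, median centring, array weights, the dimmest 25% left out, all probe sets, trend and robust moderation, each array left out, and both replicate 1 arrays left out. Arrays give no depth, and their number limits the precision.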

Additional observations from a re-analysis of the deposited data

Results flagged for a closer look

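Probe sets without a gene symbol, which enter none of the comparisons above, held called changes. In a limma fit over all 43550 probe sets, 204 of 27891 unnamed ones were called (0.731%), 177 higher and 27 lower with 4-OHT. The highest was probe set 16684080, at log2 signals of 5.70, 5.95 and 6.07 without and 8.46, 8.12 and 9.14 with 4-OHT (2.67, limma adjusted p = 0.000792). The lowest was probe set 17090320, at 10.86, 10.68 and 10.76 without and 9.21, 9.38 and 8.84 with 4-OHT (-1.62, adjusted p = 0.00132).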

How the results depend on the processing

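No gene among the 161 changed direction in any of the 18 alternatives, but most of these could not reverse one. The induced and uninduced arrays of each gene did not overlap, so leaving out or weighting arrays keeps the direction. Other settings change only the spread or the genes tested. Only renewed quantile normalisation and median centring could have reversed a direction. The 558 calls (447 higher and 111 lower) became 190 (182 and 8) with only the 6 RhoH arrays fitted. That fit has fewer samples for the spread and lacks the GFP arrays, which varied less than the RhoH arrays. The calls became 953 (588 and 365) after renewed quantile normalisation and 950 (562 and 388) with array weights. The lower count moved with median centring (197) and with the dimmest 25% left out (167). With all probe sets tested 526 were called, 467 higher and 59 lower, unnamed ones included, and 314 of the 558 genes stayed called (282 higher and 32 lower). Leaving out 1 array gave 304 to 666 calls, 287 to 413 higher and 17 to 280 lower, and the cause was not tested. The RHOH value was 0.38 with 6 arrays (limma adjusted p = 0.192) and with all probe sets tested (0.112), 0.36 with median centring (0.0776) and 0.39 without both replicate 1 arrays (0.109). Without single arrays it was 0.32 to 0.45 (0.0184 to 0.171). The samples share replicate numbers. With the replicate block 684 genes were called, 504 higher and 180 lower, with RHOH at an adjusted p of 0.0439. Deviations of same-numbered RhoH arrays correlated at 0.543, 0.368 and 0.0654. Those of differently numbered ones were at -0.496, -0.137, -0.445, 0.142, -0.388 and 0.395, the last for uninduced replicate 3 with induced replicate 2. The main fit did not take the numbers to pair the samples, and whether same-numbered arrays share a batch was not tested. Dim signals limit what could be called: 0.162% of the dimmest genes were called.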

Other observations

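PPARG, a nuclear receptor of lipid metabolism and of alternatively activated macrophages, rose with 4-OHT and belongs to none of the gene groups above. Its log2 signal was 6.26, 5.73 and 5.74 without 4-OHT and 7.46 on each of the induced arrays (1.54, limma adjusted p = 0.000188). It was chosen after its values were seen.

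Equal values across arrays were frequent. All 3 arrays of a group held the same value for 101 genes in the uninduced, 121 in the induced and 201 in the GFP group. At least 2 of the 3 were equal for 8.02%, 8.15% and 11.4% of genes. Among the 558 called genes, 5 had equal values on all induced arrays, TLR6 and PPARG among them, and 46 (8.24%) had equal values on at least 2. No arrays were identical.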
